A study of Mus musculus with 24 samples.

Results

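The 10 genes described here encode the peroxisome proliferator-activated receptors (Ppara, Ppard and Pparg), their heterodimer partners Rxra and Rxrg, the coactivators Ppargc1a and Ppargc1b, the oestrogen-related receptor Esrra through which these coactivators act on mitochondrial genes, and the corepressors Nrip1 and Ncor1. They were taken by name: a probe belonged to the set when its listed gene name, or the current symbol of its transcript accession, was 1 of the 10. Of the 21674 named genes on the array 10762 could be compared, 9 of these 10 among them. The rule gave 23 of the 41174 probes on the array, and 19 of these 23 stood far enough above background to be compared, among 15958 such probes in all. The tissue was gastrocnemius muscle of adult male C57BL/6N mice, which were 3 months old when the diets began and were fed for 8 weeks. All 3 groups received a high-fat diet with about 35% lipid by weight (cHF), either alone, with 15% of its lipids replaced by an n-3 PUFA concentrate of 46% DHA and 14% EPA (cHF+F), or with rosiglitazone at 10 mg per kg of diet (cHF+ROSI). Each group had 8 mice and 8 arrays. Before they were killed, all mice were fasted for 10 hours in the light phase and then offered low-fat Chow overnight, so every value describes re-fed muscle, and there was no group without the high-fat diet.

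PPARs are nuclear receptors that bind fatty acids and their derivatives. Each pairs with an RXR on DNA, at 2 copies of the half-site AGGTCA, and exchanges corepressors such as NCoR1 for coactivators when a ligand binds. In muscle PPARα and PPARδ are known for driving genes of fatty acid oxidation, PPARγ is the receptor of rosiglitazone and is far more abundant in adipocytes, and PGC-1α and PGC-1β raise mitochondrial gene expression together with ERRα. RIP140, the product of Nrip1, opposes them. An array of this kind measures the mRNA of these proteins and not their ligand occupancy, so the comparisons below ask whether n-3 PUFA or rosiglitazone changed the amount of each receptor or coregulator transcript.

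Because the receptors recognise AGGTCA, the 250 bases before the RefSeq start sites of the genes themselves (GRCm38.p6) were searched for it on both strands. The half-site lay in 4 of the 15 windows of the 9 genes searched (the window of Ppargc1b was not analysed here), and in 14.0% of all 32851 windows of the same table. The paired form AGGTCANAGGTCA lay in 0 of the 15 windows and in 0.0335% of all windows. The stretches that hold it are shown, since each belongs to a PPAR or RXR gene whose mRNA is followed below, on the strand of the gene and with the half-site in capitals. In one of the Rxra stretches the half-site is on the other strand and reads TGACCT.
Rxrg (chr1:167618165-167618194): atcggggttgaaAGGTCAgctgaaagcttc
Pparg, first start site (chr6:115361104-115361133): agccgccgcctcAGGTCAgagtcgccccgg
Pparg, the second start site (chr6:115362319-115362348): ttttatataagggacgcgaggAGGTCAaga
Rxra, nearer site (chr2:27709232-27709261): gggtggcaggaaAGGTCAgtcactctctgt
Rxra, farther site (chr2:27709193-27709222): tagaaatgggtgTGACCTgagtaatggtca
These letters are a description of the windows and were not measured by the arrays.

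Every array compared the labelled RNA of 1 mouse (Cy5, red) with one pool of muscle RNA (Cy3, green), and levels are given as the log2 of Cy5 over Cy3, so that 0 is the level of the pool. The pool also held RNA of mice on a higher dose of rosiglitazone, which are not analysed here. Between 30.4% and 61.3% of spots were well above background in Cy5 on 23 arrays, and 91.1% on the array of cHF+ROSI replicate 4. The 3 arrays of 1 replicate number shared a slide, and each group always held the same position on it. No probe passed an adjusted p of 0.05 in limma in any comparison (0% of 15958 probes in cHF+F versus cHF, 0% in cHF+ROSI versus cHF and 0% in cHF+F versus cHF+ROSI), and the unadjusted p was under 0.05 for 6.86%, 4.70% and 6.67% of probes, respectively. In the pool channel alone, with the same RNA on every array, 79, 299 and 19 probes had an unadjusted p under 0.05, or 244, 3410 and 409 in a fit blocked by slide, of which 0 passed adjustment. Position on the slide and group cannot be told apart. Against the shares for the ratio, 2, 3 and 4 of the 19 receptor and coregulator probes had an unadjusted p under 0.05. None of the changes below is therefore a call.

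**Figure D1:**
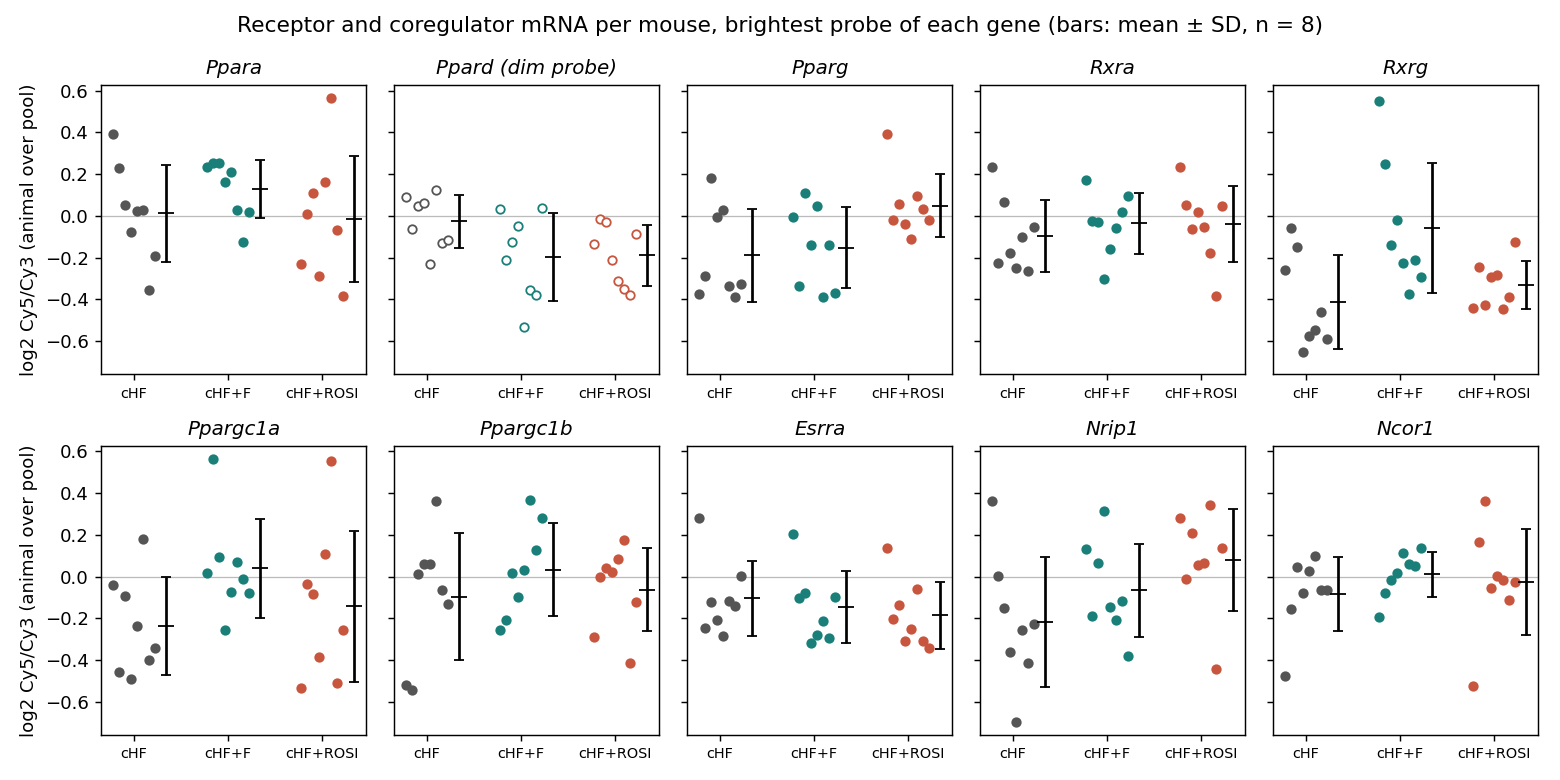
Log2 ratio of Cy5 (1 mouse) over Cy3 (pool) on the vertical axis for the brightest probe of each gene, 1 point per mouse in replicate order within each group, with the mean ± SD of the 8 mice at the right of each group. Open points mark Ppard, whose probe was too dim to compare. The Rxrg values of all 8 cHF+F mice lie above the cHF mean, and those of Pparg in all 8 cHF+ROSI mice do so too, while the groups overlap in every panel.

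Detection differed among the receptors. Ppara (chromosome 15, 85629291 to 85629350 in mm8, the build of the array files) and Pparg (chromosome 6, 115455814 to 115455873) were well above background in Cy5 on 24 of 24 arrays, with mean signals of 11.6 and 9.92 times background. Ppard (chromosome 17, 28027240 to 28027299) had a single probe that was well above background on only 8 of 24 arrays, at a mean of 1.76 times background in Cy5 and 1.67 in Cy3. Of these 8 arrays 2 were from cHF mice, 2 from cHF+F mice and 4 from cHF+ROSI mice. The median signals of the groups were alike, at 1.43, 1.45 and 1.52 times background in Cy5, while the highest cHF+ROSI array reached 8.26. PPARδ is the main PPAR of skeletal muscle, but on most arrays this probe was not well above background. Its log2 ratio was -0.027 ± 0.13 (SD, n = 8) in cHF, -0.20 ± 0.21 in cHF+F and -0.19 ± 0.14 in cHF+ROSI. In a limma fit of all 41174 probes it changed by -0.17 in cHF+F versus cHF (limma p 0.0355, adjusted p 0.510) and by -0.16 in cHF+ROSI versus cHF (limma p 0.0442, adjusted p 0.563). The other genes were detected on all arrays by their brightest probes. Annotation of mm8 was not used here, so the exon or UTR of each probe is not stated.

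Ppara, which encodes the fatty acid-activated receptor of oxidative tissues, was close to the pool in all groups. Its log2 ratio ran from -0.36 to 0.39 with a median of 0.025 in cHF mice, from -0.13 to 0.26 with a median of 0.19 in cHF+F mice, and from -0.38 to 0.56 with a median of -0.031 in cHF+ROSI mice. The cHF+F mice lay within the range of the controls and spread less than they did. The change was 0.12 in cHF+F versus cHF (95% interval -0.11 to 0.34) and -0.029 in cHF+ROSI versus cHF (-0.25 to 0.20). The 10 copies of the Ppara probe on each array agreed closely, with an SD of 0.088 over copies and an SE of 0.029 for an array's mean, against an SD of 0.24 between mice of a group. The spread in Ppara was thus mostly that between arrays of different mice and not that between spots.

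Pparg, the receptor that rosiglitazone activates, had its highest level in cHF+ROSI mice. Its log2 ratio ran from -0.39 to 0.18 with a median of -0.31 in cHF mice, from -0.39 to 0.11 with a median of -0.14 in cHF+F mice, and from -0.11 to 0.39 with a median of 0.0061 in cHF+ROSI mice. All 8 cHF+ROSI mice were above the mean of the cHF mice, but only 1 was above their highest value, and on 5 of 8 slides the cHF+ROSI mouse was above the cHF mouse of its slide. The means were 0.049 ± 0.15 in cHF+ROSI and -0.19 ± 0.22 in cHF (SD, n = 8), a change of 0.24 (SE 0.092; 95% interval 0.050 to 0.43), or 1.18-fold, with a limma p of 0.0150 and an adjusted p of 0.996. The change in cHF+F versus cHF was 0.037 (-0.15 to 0.23), and cHF+F mice were below cHF+ROSI mice by -0.20 (-0.39 to -0.013; limma p 0.0367, adjusted p 0.740). In the Cy5 channel alone, without the pool, the change of cHF+ROSI versus cHF was only 0.045 (limma p 0.816), and the pool channel itself differed by -0.13 (limma p 0.234), which bears directly on the ratio.

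As Pparg is a gene of adipocytes, the adipocyte markers were set beside it. In cHF+ROSI versus cHF, 4 of 10 adipocyte markers were higher and 6 lower, with a median change of -0.0095, and 0 had a limma p under 0.05. Their mean log2 ratio per mouse ran from -0.78 to 0.53 in cHF, from -1.02 to 0.76 in cHF+F and from -0.69 to 0.22 in cHF+ROSI, ranges that overlapped. Within groups, however, Pparg followed these markers from mouse to mouse, with a Pearson's r of 0.79 over the 24 arrays after the group means were removed. Its r was 0.52 with the mean of the slow-fibre markers, 0.35 with the macrophage markers and -0.36 with the markers of skeletal muscle in general. The genes most like Pparg by this measure, among 10762 named genes, were Rab34 (r = 0.86), Aifm2 (0.85) and Cidec (0.84), the last a lipid droplet protein of adipocytes and 1 of the 10 markers. The number of adipocytes in a sample and the amount of their RNA per cell cannot be told apart in whole muscle. All 8 markers of fast fibres, all 8 of slow fibres and all 7 of skeletal muscle in general were well above background on 24 of 24 arrays, as were 8 of the 10 adipocyte markers and 6 of 8 liver markers.

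Of the partners, Rxra encodes the widespread RXRα and Rxrg the RXRγ of skeletal muscle. Rxrg (chromosome 1, 169476168 to 169476227), measured at a mean of 240 times background, had the lowest p-value of all receptors in cHF+F versus cHF. Its log2 ratio ran from -0.66 to -0.060 with a median of -0.50 in cHF mice, from -0.37 to 0.55 with a median of -0.18 in cHF+F mice, and from -0.45 to -0.13 with a median of -0.34 in cHF+ROSI mice. Thus 8 of 8 cHF+F mice were above the cHF mean and 3 were above the highest cHF mouse, yet the groups overlapped. The change was 0.35 (SE 0.11; 95% interval 0.13 to 0.58), or 1.28-fold, with a limma p of 0.00304 and an adjusted p of 0.434. On each of the 8 slides the cHF+F mouse was higher than the cHF mouse, and with the slide as a replicate block the limma p was 0.00137 and the adjusted p 0.148.

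In cHF+ROSI mice the mean of Rxrg was nearer to that of cHF mice. The change in cHF+ROSI versus cHF was 0.080 (95% interval -0.14 to 0.30; adjusted p 0.996), and that in cHF+F versus cHF+ROSI 0.27 (0.051 to 0.50; limma p 0.0179, adjusted p 0.689). Slide by slide, cHF+ROSI minus cHF ran from -0.28 to 0.47, below 0 on slides 1 to 3 and above 0 on slides 4 to 8, a split chosen after the values were seen, for which no test is given. In the Cy5 channel alone the change in cHF+F versus cHF was 0.58 (limma p 0.00806), with 0.20 in the pool channel (limma p 0.287). The order of the mean levels was thus cHF, cHF+ROSI, cHF+F, of which the first pair did not differ beyond its spread over all slides.

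Rxra was measured by 2 probes on chromosome 2. The brighter one (27584900 to 27584959, at 201 times background) changed by 0.060 in cHF+F versus cHF (95% interval -0.11 to 0.23) and by 0.056 in cHF+ROSI versus cHF (-0.11 to 0.22). The dimmer one (27581805 to 27581864, at 3.16 times background) changed by -0.12 (-0.25 to 0.020) and by -0.13 (-0.27 to 0.0074), and 7 of 8 cHF+ROSI mice were below the cHF mean. With the slide as a replicate block its limma p was 0.0400 and 0.0248, with adjusted p-values of 0.383 and 0.452. The probes of Rxra thus differed in sign in both comparisons. Their correlation within groups was 0.50, but only 0.090 with slide means removed as well.

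**Figure D2:**
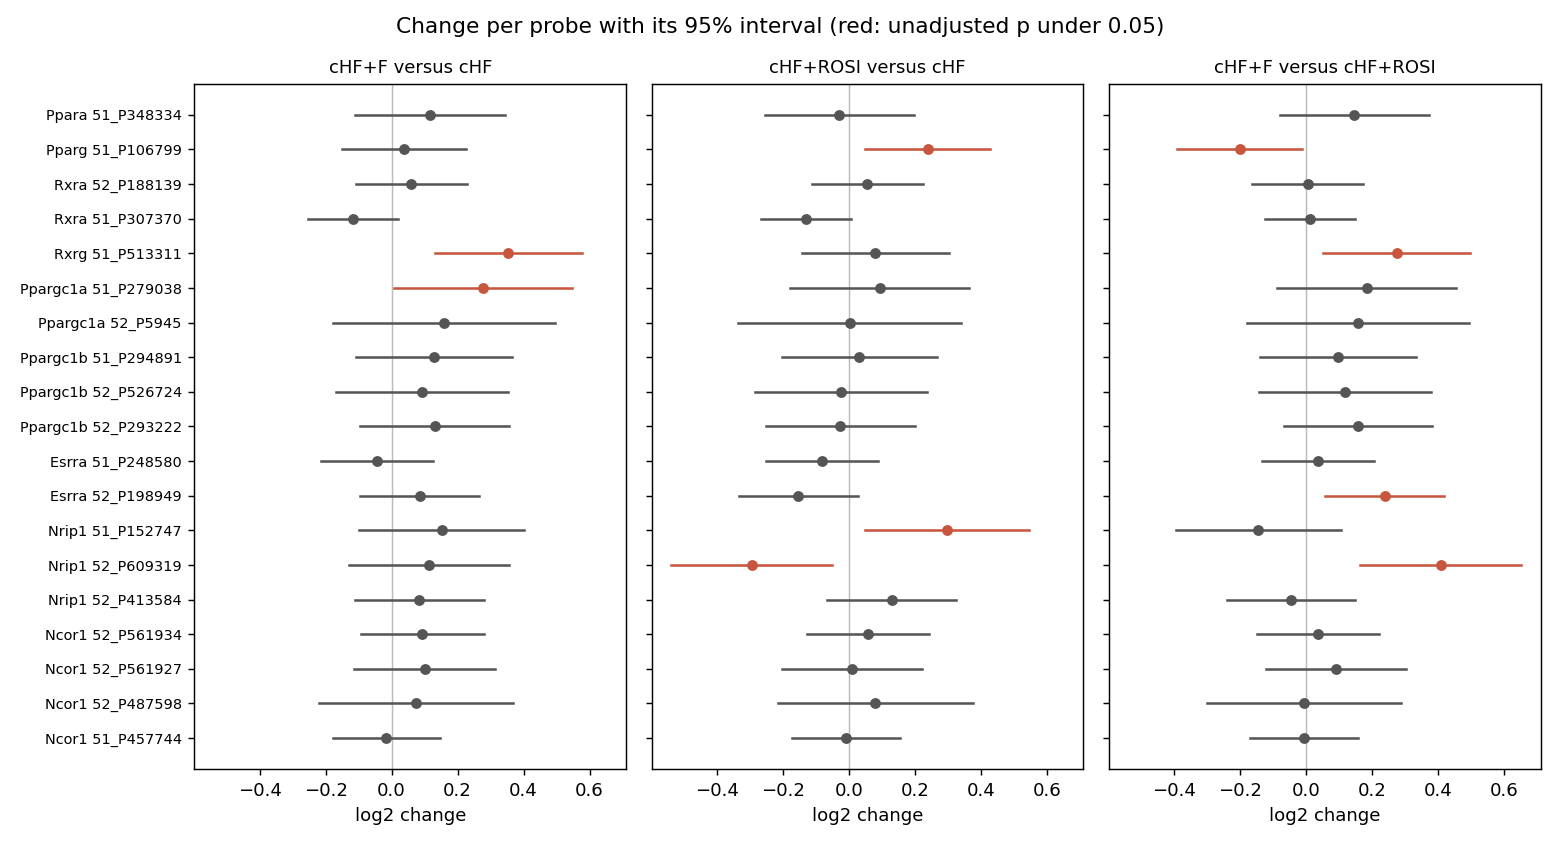
Log2 change (horizontal axis) of each of the 19 compared probes in the 3 comparisons, as points with 95% intervals. Red marks an unadjusted limma p under 0.05, which 2, 3 and 4 probes had. Above 0 lie 16 of 19 changes in cHF+F versus cHF, 11 in cHF+ROSI versus cHF and 14 in cHF+F versus cHF+ROSI. Several probes share a gene and all share the arrays, so these counts are descriptions. The medians over all compared probes of the array were 0.00063, -0.0086 and 0.0084. In cHF+F versus cHF the 2 red probes are those of Rxrg and of Ppargc1a.

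Ppargc1a encodes PGC-1α, the coactivator that is induced in muscle by exercise and fasting. Its brighter probe (chromosome 5, 51745937 to 51745996) was higher in cHF+F than in cHF mice on average. The log2 ratio ran from -0.49 to 0.18 with a median of -0.29 in cHF mice, from -0.25 to 0.56 with a median of 0.0030 in cHF+F mice, and from -0.53 to 0.55 with a median of -0.17 in cHF+ROSI mice. Of the cHF+F mice, 7 of 8 were above the cHF mean. The change was 0.28 (SE 0.13; 95% interval 0.0065 to 0.55), or 1.21-fold, with a limma p of 0.0451 and an adjusted p of 0.715. cHF+F replicate 2 was the highest mouse at 0.56, and without it the change was 0.20 with a limma p of 0.122.

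The second probe of Ppargc1a (51743906 to 51743965) changed by 0.16 in cHF+F versus cHF (95% interval -0.18 to 0.50; limma p 0.338), and by 0.0021 in cHF+ROSI versus cHF (-0.33 to 0.34). It ranged from -0.35 to 0.75 in cHF mice, where replicate 1 was the highest and the next mouse was at 0.041. The correlation of both probes within groups was 0.52, and 0.87 with slide means removed as well. In cHF+ROSI versus cHF the brighter probe changed by 0.093 (-0.18 to 0.36). The groups with the lowest and the highest mean of the brighter probe were cHF and cHF+F, and cHF+ROSI did not differ from either beyond its spread.

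Ppargc1b encodes PGC-1β, the close relative of PGC-1α, and its 3 probes on chromosome 18 moved together, with correlations within groups of 0.67 to 0.88. All had a higher mean in cHF+F than in cHF, by 0.13, 0.093 and 0.13, with limma p-values of 0.271, 0.468 and 0.243. In cHF+ROSI versus cHF their changes were 0.032, -0.025 and -0.026. The log2 ratio of the brightest ran from -0.54 to 0.36 in cHF, from -0.25 to 0.37 in cHF+F and from -0.41 to 0.17 in cHF+ROSI mice, so that the spread of any group was wider than the difference between groups. The 95% intervals of the brightest probe reached from -0.11 to 0.36 and from -0.20 to 0.27.

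Esrra encodes ERRα, a receptor with no known natural hormone that binds PGC-1 coactivators. Its bright probe (chromosome 19, 6978153 to 6978212, at 166 times background) ran from -0.29 to 0.28 in cHF, from -0.32 to 0.21 in cHF+F and from -0.34 to 0.14 in cHF+ROSI mice, and changed by -0.044 in cHF+F versus cHF (95% interval -0.21 to 0.13) and by -0.081 in cHF+ROSI versus cHF (-0.25 to 0.089). Its residual SD was 0.17, and 0.083 with the slides removed. A dimmer probe (6983724 to 6983783, at 6.93 times background) ran from -0.24 to 0.34 in cHF mice, from -0.026 to 0.29 in cHF+F mice and from -0.60 to 0.18 in cHF+ROSI mice. Here 8 of 8 cHF+F mice were above the cHF+ROSI mean, and the change in cHF+F versus cHF+ROSI was 0.24 (0.058 to 0.42; limma p 0.0115, adjusted p 0.640). cHF+ROSI replicate 7 was the lowest at -0.60, and without it that change was 0.16 with a limma p of 0.0327. The Esrra probes did not follow each other within groups (r = -0.094), but with slide means removed as well their r was 0.34.

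Nrip1, which encodes the corepressor RIP140, gave the largest disagreement between probes of a gene in cHF+ROSI versus cHF. Its first probe, designed on the reference transcript (chromosome 16, 76173990 to 76174049) ran from -0.70 to 0.36 with a median of -0.24 in cHF mice, from -0.38 to 0.32 with a median of -0.13 in cHF+F mice, and from -0.44 to 0.34 with a median of 0.10 in cHF+ROSI mice. The cHF+ROSI mice were higher than the cHF mice by 0.30 (SE 0.12; 95% interval 0.048 to 0.55), or 1.23-fold, with a limma p of 0.0214 and an adjusted p of 0.996. Of these mice 7 of 8 were above the cHF mean, and 5 of 8 were above the cHF mouse of their slide. A second probe close by (76170913 to 76170972), designed on a cDNA clone, changed by 0.13 (-0.065 to 0.33) in the same comparison and followed the first from mouse to mouse with an r of 0.76.

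The third Nrip1 probe, on another cDNA clone and listed on the same strand farther along the chromosome (76234453 to 76234512), went the other way. It ran from 0.019 to 0.48 with a median of 0.28 in cHF mice, from -0.27 to 0.69 with a median of 0.43 in cHF+F mice, and from -0.54 to 0.20 with a median of 0.055 in cHF+ROSI mice. All 8 cHF+ROSI mice were below the cHF mean, and 5 of 8 cHF+F mice were above the highest cHF+ROSI mouse. The change was -0.29 in cHF+ROSI versus cHF (SE 0.12; 95% interval -0.54 to -0.051; limma p 0.0195, adjusted p 0.996) and 0.41 in cHF+F versus cHF+ROSI (0.16 to 0.65; limma p 0.00195, adjusted p 0.486). In Cy5 alone the change in cHF+ROSI versus cHF was -0.027, against 0.31 in the pool channel (limma p 0.112), while in cHF+F versus cHF+ROSI it was 0.38 in Cy5 alone and 0.013 in the pool. Compared slide by slide, cHF+F minus cHF+ROSI ran from -0.37 to 1.13 and was above 0 on 6 of 8 slides. Its correlation with the first probe was 0.20, or 0.46 with slide means removed as well.

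**Figure D3:**
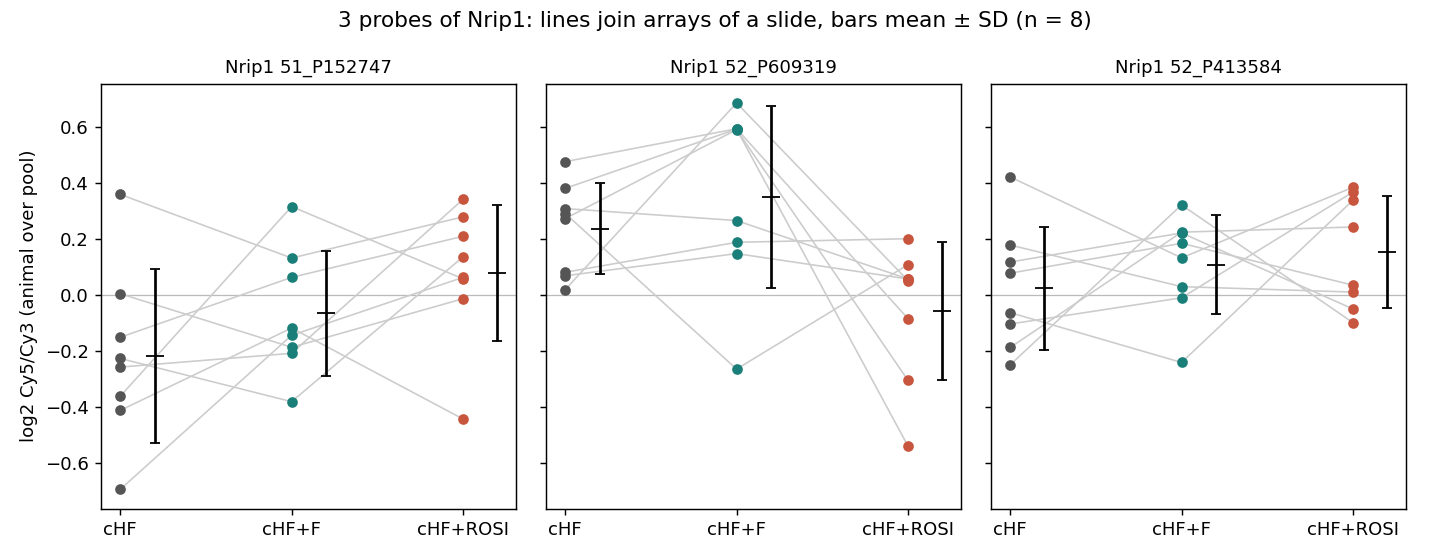
Log2 ratio of Cy5 over Cy3 (vertical axis) for the 3 Nrip1 probes in the 3 groups, 1 point per mouse, with grey lines joining the arrays of a slide and the mean ± SD of 8 mice beside each group. The left and right probes have their highest mean in cHF+ROSI, and the middle probe its lowest, where all 8 cHF+ROSI mice lie below the cHF mean.

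Ncor1 encodes the corepressor NCoR1, which recruits histone deacetylase to receptors without ligand. The array held 7 probes for it, of which 4 could be compared. On the strand of the gene lay the brightest (chromosome 11, 62134177 to 62135571, across a gap), one at 62137342 to 62137401 and one at 62235836 to 62235895. They changed by 0.094, 0.10 and 0.074 in cHF+F versus cHF and by 0.058, 0.0092 and 0.080 in cHF+ROSI versus cHF, with limma p-values from 0.308 to 0.930. The log2 ratio of the brightest ran from -0.48 to 0.10 in cHF mice, from -0.19 to 0.13 in cHF+F mice and from -0.52 to 0.36 in cHF+ROSI mice. The lowest mouse of each of the 3 groups was the one on slide 1.

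The fourth compared Ncor1 probe (62143722 to 62143781) is listed in the opposite direction to the gene, as are 2 dimmer ones (62141154 to 62141213 and 62142463 to 62142522). Across the array, 99.7% of 19768 probes of reference transcripts are listed in the direction of their gene, so these 3 probes may not measure Ncor1 mRNA. The compared one changed by -0.016 and -0.0087 and had correlations of 0.0024, 0.10 and -0.17 with the 3 sense probes, but of 0.68 with the brighter Ppargc1a probe. The remaining sense probe (62217919 to 62217978) was below the signal limit in the pool channel.

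The probes of these genes varied together in 2 sets that cut across the genes. The 3 Ppargc1b probes, the dimmer Esrra probe and the sense probes of Ncor1 rose and fell together, for example with an r of 0.83 between Ppargc1b and the dimmer Esrra probe and of 0.75 between another Ppargc1b probe and Ncor1. Other pairs of this set were weaker, down to 0.34 between the dimmest Ppargc1b probe and the dimmest compared sense probe of Ncor1. The bright Esrra probe went with the second Ppargc1a probe (r = 0.83) and with the bright Rxra probe (r = 0.69), and against Ncor1 (r = -0.65 for its second probe). With the slide means removed as well, r became 0.58 for Esrra and Ppargc1a, 0.029 for Esrra and Rxra and 0.052 for Esrra and Ncor1. It became 0.29 for the pair of Ppargc1b and Ncor1 that had 0.75, while that of Ppargc1b and the dimmer Esrra probe was 0.82. Between the brightest Ppargc1b probe and the bright Rxra probe, which are not in 1 set, r went from -0.092 to 0.70. All points share the 24 arrays and their slides, and these coefficients are descriptions. Ppara and the brighter Ppargc1a probe, a receptor and its coactivator, had an r of 0.63, or 0.48 with the slides removed. This was not particular to that pair. Ppara had an r of 0.62, or 0.53 with the slides removed, with the compared Ncor1 probe listed in the opposite direction.

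**Figure D4:**
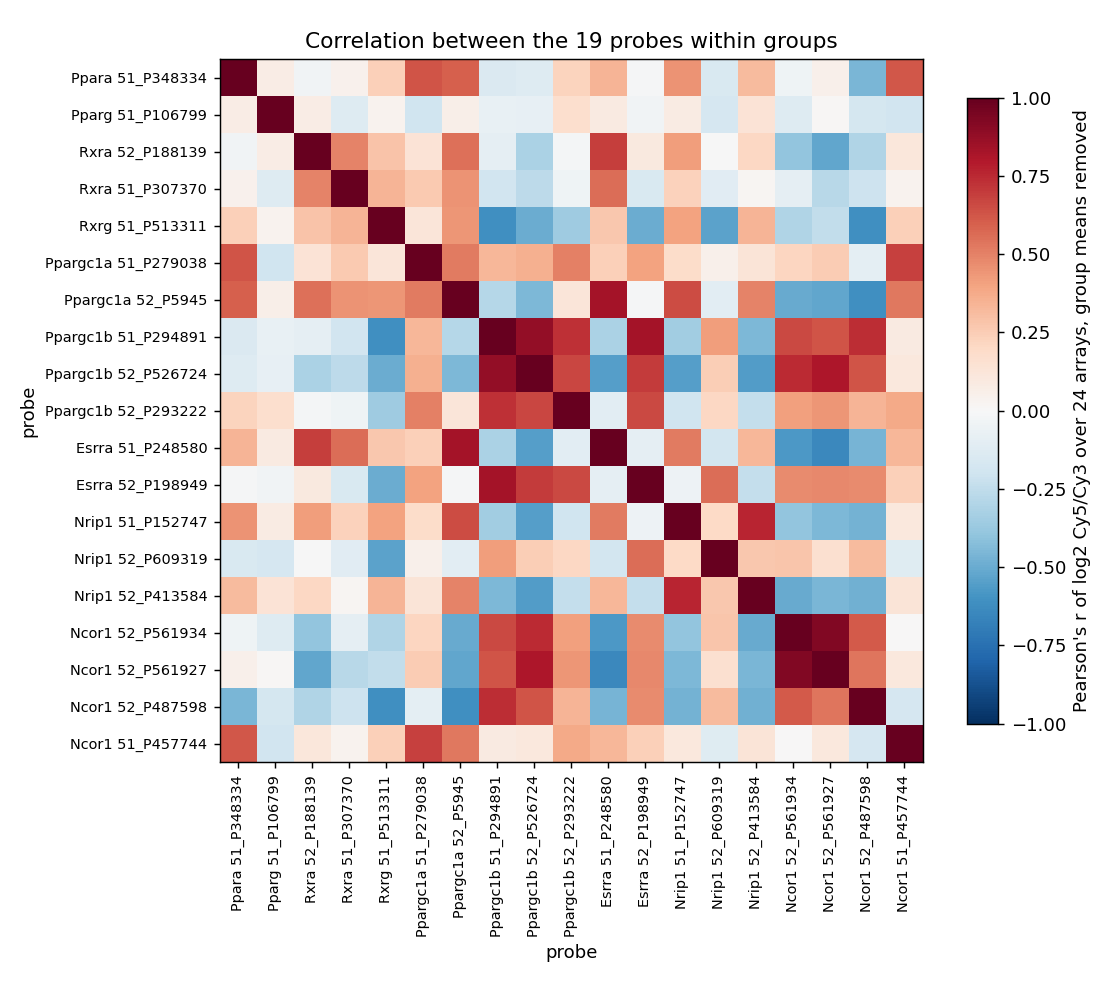
Pearson's r between the 19 compared probes over 24 arrays after subtraction of the group means, with probes on both axes and colour from -1 (blue) to 1 (red). Blocks of red join the Ppargc1b, Ncor1 and dimmer Esrra probes, while Pparg lies between -0.20 and 0.17 with the other 18 probes.

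By the same measure, which leaves the slide means in, the other genes were compared with all 10762 named genes. Removing the slide means took away from 44.8% (Pparg) to 84.2% (Esrra) of the within-group variance of the brightest probes. The median over all 15958 compared probes was 53.5%. Whether the likenesses below, or those of Pparg above, remain without the slides was not tested. Each was picked as among the highest of many coefficients, so they are descriptions. Ppara was closest to Cdk17 (r = 0.85), Adamts9 (0.84) and Gmnn (0.83). Rxra was closest to Ddx19b (0.85), Foxj3 (0.84) and Tlr9 (0.84), and Rxrg to Nek6 (0.87), Saa2 (0.85) and Aurka (0.84). Ppargc1a was closest to Shank3 (0.78), Podxl (0.74) and Zdhhc18 (0.72), which were the lowest of these coefficients. Ppargc1b was closest to Kif1b (0.90), Tshz1 (0.89) and Nr2c2 (0.84), and Esrra to Orc2 (0.90), Afg3l1 (0.89) and Zfp639 (0.88). Nrip1 was closest to Pprc1 (0.83), a further member of the PGC-1 family, with Zscan22 (0.82) and Hirip3 (0.81), and Ncor1 to Dag1 (0.94), Kmt2c (0.93) and Cacna2d1 (0.91).

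The other genes of the pathway were taken from lists with 1 probe per gene. Of 14 other nuclear receptors compared, 0 passed an adjusted p of 0.05 in limma in any comparison and 0 had an unadjusted p under 0.05, with median changes of -0.053 in cHF+F versus cHF and 0.0036 in cHF+ROSI versus cHF, beside 0.00063 and -0.0086 over all probes. Among the lowest p-values were those of Nr2f2 (-0.16 in cHF+F versus cHF), Esrrb (-0.11 and -0.15) and Esrrg (-0.12 in cHF+ROSI versus cHF), and in cHF+F versus cHF+ROSI those of Nr2f2 (-0.18), Nr1d1 (0.16) and Nr1d2 (-0.094). Over all probes, 6.86% and 4.70% had an unadjusted limma p under 0.05 in cHF+F versus cHF and cHF+ROSI versus cHF. Of 19 other coactivators, 5 had one in the first comparison (4 higher, 1 lower) and 4 in the second (3 higher, 1 lower). They included Cited4, a partner of CBP that was 0.44 higher in cHF+F (limma p 0.00570) and 0.32 higher in cHF+ROSI (limma p 0.0394), Lpin1, a phosphatase and PGC-1α partner (0.25 in cHF+F versus cHF and 0.35 in cHF+F versus cHF+ROSI), Mef2c (0.23 in cHF+F versus cHF), and Prdm16 (0.23) and Prmt1 (0.20) in cHF+ROSI versus cHF. In cHF+F versus cHF+ROSI the lowest p-values after that of Lpin1 were those of Prdm16 (-0.29) and Med1 (0.10).

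Of 12 other corepressors, 1 had an unadjusted limma p under 0.05 in cHF+F versus cHF and 0 in cHF+ROSI versus cHF. This was Hdac5, the class II deacetylase that restrains MEF2, at -0.22 in cHF+F versus cHF (limma p 0.00177, adjusted p 0.402) and -0.17 in cHF+F versus cHF+ROSI. The next in order were Ctbp2 (0.080) and Rb1 (-0.072) in cHF+F versus cHF, Ctbp2 (0.12), Sin3a (-0.10) and Hdac4 (-0.094) in cHF+ROSI versus cHF, and Sin3a (0.14) and Tbl1x (0.046) in cHF+F versus cHF+ROSI.

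Means of most PPAR target genes were lower in both treated groups. Of 23 PPAR target genes of muscle, 22 had a lower mean in cHF+F than in cHF and 22 in cHF+ROSI than in cHF, with median changes of -0.20 and -0.18. Of these 23, 7 and 8 had an unadjusted limma p under 0.05, all lower, and 0 passed adjustment. Over all 15958 probes, 639 and 480 were lower at that threshold. The counts of target genes were 4 and 4 without cHF replicate 3 and cHF+ROSI replicates 3 and 4, and 3 and 2 with median centring or Cy5 alone. They were 10 and 10 with the replicate block and 11 and 11 with array weights. The shares over all probes under these settings are not given here, so these counts have no background beside them. Both comparisons use the same cHF mice, and the list was chosen with earlier results of these arrays known, so it is not independent evidence of its direction. Pdk4, a kinase that limits glucose oxidation, changed by -1.09 and -0.87, Acot1, an acyl-CoA thioesterase, by -0.55 and -0.26, Plin5, a lipid droplet protein, by -0.51 and -0.19, and Cpt2, of mitochondrial fatty acid import, by -0.24 and -0.28. Hadhb (-0.31) and Cpt1b (-0.20), of the same oxidation pathway, had the next lowest p-values after Cpt2 in cHF+ROSI versus cHF. In Cy5 alone the share was smaller, with 15 and 16 of 23 lower. In cHF+F versus cHF+ROSI, 12 were higher and 11 lower, with the lowest p-values for Plin2 (-0.32), Plin5 (-0.31) and Acot1 (-0.29).

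**Figure D5:**
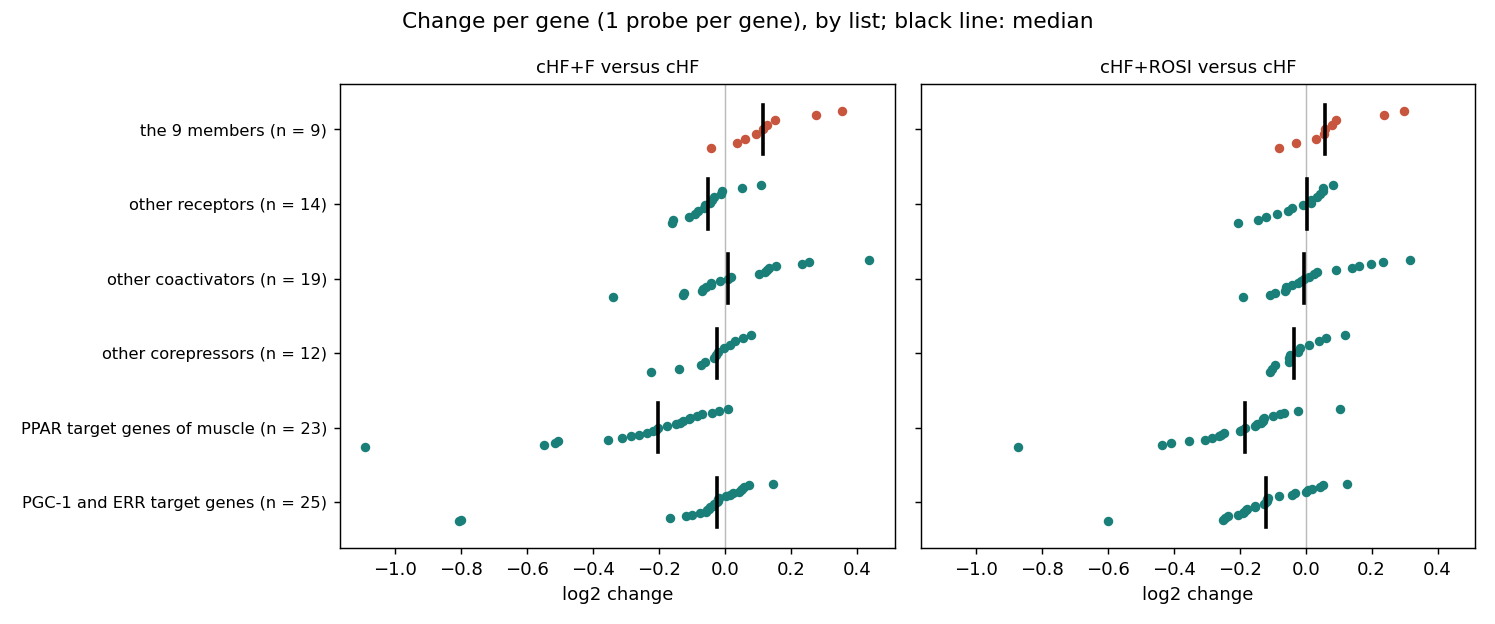
Log2 change per gene (horizontal axis) in cHF+F versus cHF and in cHF+ROSI versus cHF, 1 point per gene, for the 9 compared receptors and coregulators (red, brightest probe) and 5 lists of related genes (green), with the median as a black line. The PPAR target genes lie mostly left of 0, at medians of -0.20 and -0.18, and the 9 genes mostly right of it, at 0.12 and 0.058. Over all 19 compared probes of these 9 genes the medians were 0.094 and 0.0092.

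Of 25 PGC-1 and ERR target genes, 9 were higher and 16 lower in cHF+F versus cHF (median -0.024), and 6 higher and 19 lower in cHF+ROSI versus cHF (median -0.12). Those with an unadjusted limma p under 0.05 in cHF+F versus cHF were Tnni1 (-0.81) and Myh7 (-0.80), which encode slow-fibre troponin and myosin, and the next was Mfn2 (-0.099). Among the lowest p-values in cHF+ROSI versus cHF were those of Mfn2, of mitochondrial fusion (-0.21), and Ndufs1 (-0.18), and in cHF+F versus cHF+ROSI Cox4i1 (0.23), followed by Atp5o (0.17) and Tnni1 (-0.56).

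Markers of the fibre types and of other cells were set beside these lists. Markers of slow fibres had a lower mean in 7 of 8 cases in cHF+F versus cHF (median -0.43), and in 5 of 8 in cHF+ROSI versus cHF (median -0.23). Their mean log2 ratio per mouse ran from -0.31 to 0.67 in cHF, from -1.05 to 0.33 in cHF+F and from -1.23 to 0.62 in cHF+ROSI. Beside Tnni1 and Myh7, the lowest p-values were those of Tnnc1, of slow troponin (-0.70 in cHF+F versus cHF), of Myh7 (-0.60), Atp2a2 (-0.28) and Tnnt1 (-0.37) in cHF+ROSI versus cHF, and of Myoz2 (-0.23) in cHF+F versus cHF+ROSI. Of 8 fast-fibre markers 5 had a higher mean in cHF+F than in cHF (median 0.068) and 0 in cHF+ROSI (median -0.15), but without background correction 4 were higher and 4 lower in cHF+ROSI versus cHF (median 0.0027), and in Cy5 alone 6 were higher and 2 lower. The fast-fibre markers with the lowest p-values were Mylpf, Myh2 and Tnnt3 (0.20, -0.20 and 0.16 in cHF+F versus cHF), Pvalb, Myh1 and Myh2 (-0.18, -0.22 and -0.25 in cHF+ROSI versus cHF) and Actn3 beside Mylpf and Tnnt3 (0.24 in cHF+F versus cHF+ROSI). Of the general muscle markers these were Mb, Myod1 and Ttn (-0.34, 0.14 and 0.18), then Des, Mb and Ckm (-0.16, -0.26 and -0.28), and Ckm, Myod1 and Des (0.41, 0.16 and 0.13), in the same order of comparisons.

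Endothelial markers had a lower mean in 8 of 8 cases in both treated groups against cHF, with medians of -0.16 and -0.12. Icam2, an adhesion molecule of endothelium, changed by -0.25 in cHF+F versus cHF (SE 0.047; limma p 1.69e-05, adjusted p 0.0774), and Cldn5, a tight junction protein, by -0.65 (SE 0.13; limma p 4.33e-05, adjusted p 0.121). These adjusted p-values were lower than any of the 10 genes, and neither passed 0.05. Egfl7 changed by -0.23 in that comparison, and in cHF+ROSI versus cHF Cldn5 changed by -0.42, Tek by -0.17 and Kdr by -0.23. In cHF+F versus cHF+ROSI the values were -0.20 for Icam2 and -0.23 for both Egfl7 and Cldn5. The mean of the endothelial markers per mouse ran from -0.12 to 0.31 in cHF, from -0.30 to -0.020 in cHF+F and from -0.17 to 0.075 in cHF+ROSI, and its r with Pparg was 0.033 and with the brighter Ppargc1a probe 0.32. Macrophage markers were lower in 8 of 8 cases, with medians of -0.15 and -0.079, led by Cd14 (-0.18), Csf1r (-0.22) and Mrc1 (-0.15) in cHF+F versus cHF and by Lyz2 (-0.23), Cd163 (-0.098) and Cd14 (-0.075) in cHF+ROSI versus cHF. Only 4 of these 8 markers were well above background on all arrays. Of 8 liver markers 7 had a higher mean in both (medians 0.28 and 0.62), led by Mup1 (0.67), Ahsg (0.48) and Fgb (0.40) in cHF+F versus cHF and by Apoa2 (0.69), Mup1 (1.51) and the exception Hp (-0.76) in cHF+ROSI versus cHF. Both blood markers had a lower mean (medians -0.022 and -0.40), with -0.49 for Hba-a1 and -0.32 for Alas2 in cHF+ROSI versus cHF. Of the adipocyte markers the lowest p-values were those of Pnpla2 (-0.18), Lipe (-0.12) and Cfd (0.28) in cHF+F versus cHF, of Pnpla2 (-0.13), Fabp4 (-0.18) and Lipe (-0.063) in cHF+ROSI versus cHF, and of Plin1 (-0.23), Lipe (-0.055) and Cebpa (-0.093) in cHF+F versus cHF+ROSI. The part of these markers in the values of the receptors and coregulators was not tested.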

How the data were processed

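Muscle RNA of 24 mice was hybridised to Agilent 4x44K arrays by the authors, with the RNA of a mouse in Cy5 and a common pool in Cy3 and without dye swaps. The deposited scanner files hold spot intensity values from Feature Extraction (10.5.1.1 per the file headers, 10.5.5.1 in the submitters' processing notes). The authors' table of normalized log2 values was used only as an alternative, and 8 of its columns, named for another group, were not used (so that table served cHF+F versus cHF). Here median intensity was corrected with normexp (offset 50) and loess (span 0.3) in limma 3.58.1 (R 4.3.3, with the data.table package, version 1.17.8). Copies of a probe were averaged and flagged spots left out. Probes with unflagged spots on at least 4 arrays per group and a mean signal of at least 2 times background in both channels were kept. The 3 groups of 8 were fitted together in limma without a block and p-values adjusted by Benjamini-Hochberg over 15958 probes. limma was tested on simulated data.

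Of the kept probes, 12577 were named by accession, 2270 by a file name matched to a current or older symbol, 341 by the file name alone, and 770 had no name. Where a gene had several, the brightest (mean log2 Cy5) stood for it in lists and likeness, and all are given for the 10 genes. Named from each list were the 3 genes with the smallest p per comparison, and for each of the 10 genes the 3 most correlated named genes; 2 genes of the lists are not reported here. The genes and lists were chosen with earlier results of these data known. The labels give 1 array per mouse, and p-values measure the spread between these arrays. Their number, 8 per group, limits the precision. The replicate number was the slide on 24 of 24 arrays. Arrays of the same number deviated together in 18 of 24 pairs at an r over 0.1 (-0.11 to 0.64, median 0.25, against -0.053 between numbers). Alternatives were no background correction, Feature Extraction processed signals, median centring, loess with a span of 0.1, Cy5 alone, no filter or a stricter one, array weights, the replicate block, the methods' t-test, the mean of a gene's probes, the authors' values for cHF+F versus cHF, and leaving out each array. Further, 2 were added after seeing the data, namely slides 4 to 8 alone and leaving out cHF replicate 3 and cHF+ROSI replicates 3 and 4 together. Promoter windows are RefSeq's, and their coordinates (GRCm38.p6) are not those of the probes (mm8). Probe sequences were not used here.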

Additional observations from a re-analysis of the deposited data

Results flagged for a closer look

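In 9 of 57 groups of 8 arrays (19 probes in 3 groups), 1 array stood apart from the others by more than Dixon's critical value, where chance flags about 1 in 20. Of these flags, 6 were on arrays of slide 1. On that slide the cHF array was highest for the second Ppargc1a probe (0.75, next 0.041) and lowest for 2 Ncor1 probes (-0.48, next -0.16, and -0.75, next -0.19), and the cHF+ROSI array was lowest for the second of them (-0.69, next -0.24). Highest on that slide were cHF+F for the bright Esrra probe (0.21, next -0.079) and cHF+ROSI for Pparg (0.39, next 0.097). The cHF+ROSI array of replicate 7 was lowest for the dimmer Esrra probe (-0.60, next -0.13) and for the first Nrip1 probe (-0.44, next -0.013). The cHF+F array of replicate 2 was highest for the brighter Ppargc1a probe (0.56, next 0.092). Without cHF+ROSI replicate 1, the change of Pparg in cHF+ROSI versus cHF was 0.19 with a limma p of 0.0421.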

How the results depend on the processing

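No change of the 9 compared genes passed an adjusted p of 0.05 under any alternative, and of 1008 recomputed values of 27 changes (9 genes, brightest probe, 3 comparisons) 968 kept their sign and 40 did not, over 12 of the 27 changes, while Rxrg, Ppargc1a in cHF+F versus cHF, Pparg in cHF+ROSI versus cHF and Nrip1 in cHF+ROSI versus cHF were among the 15 that kept it. Over all probes, 3 were called in cHF+F versus cHF without the filter, 13 with array weights, 6 with the replicate block and 0 to 2 with 1 array left out. The block called 0 in the other comparisons, where leaving out 1 array called 0 to 2 in cHF+F versus cHF+ROSI. The methods' t-test called 1265 probes in cHF+F versus cHF, 755 in cHF+ROSI versus cHF and 938 in cHF+F versus cHF+ROSI at their threshold, and 0 in each after Benjamini-Hochberg. With the block, 3, 4 and 4 of the 19 probes had an unadjusted limma p under 0.05. The shares over all probes with the block are not given here, so these 3 counts have no background beside them. The same block raised the number of such probes in the pool channel alone from 79, 299 and 19 to 244, 3410 and 409. Rxrg changed by 0.31 in cHF+F versus cHF with median centring, with a limma p of 0.144. Nrip1 changed by 0.044 in cHF+ROSI versus cHF by the mean of its probes (limma p 0.622), against 0.30 by the brightest, and Pparg by 0.045 in Cy5 alone (limma p 0.816).

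Pparg changed in cHF+F versus cHF by -0.0022 with median centring, -0.074 in Cy5 alone and -0.0073 with array weights, and by the mean of all probes Rxra changed by -0.028 and Esrra by 0.021. Ncor1 changed in cHF+ROSI versus cHF by -0.0077 without background correction and -0.24 in Cy5 alone, Ppargc1b by -0.021 with processed signals and -0.0064 by the mean of probes, Rxra by -0.037 by that mean, and Ppara by 0.063 with array weights. Median centring gave in cHF+F versus cHF+ROSI -0.092 for Rxra, -0.046 for Esrra and -0.0079 for Ncor1, Cy5 alone -0.22 for Rxra, array weights -0.0017 for Rxra and -0.012 for Ncor1, and the mean of probes 0.072 for Nrip1. Of the settings chosen after seeing the data, slides 4 to 8 alone gave 0.11 for Ppara, -0.11 for Ppargc1b and -0.026 for Ncor1 in cHF+ROSI versus cHF, and leaving out 3 arrays together gave 0.0017 for Ppara. With 1 array left out, ranges that crossed 0 were -0.00086 to 0.090 (Pparg) and -0.094 to 0.011 (Esrra) in cHF+F versus cHF, -0.11 to 0.026 (Ppara), -0.0064 to 0.15 (Ppargc1a) and -0.032 to 0.098 (Ppargc1b) in cHF+ROSI versus cHF, and -0.045 to 0.044 (Rxra), -0.014 to 0.083 (Esrra) and -0.035 to 0.092 (Ncor1) in cHF+F versus cHF+ROSI. The cause was not tested. Signals near background limit Ppard, the dimmer Rxra and Ncor1 probes and the dimmest Nrip1 probe.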
